A study of Mus musculus with 37 samples.

Results

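The transcripts of 40 cell cycle and DNA replication genes were examined in PGCs of the mouse (primordial germ cells, which later give rise to gametes), with and without the DNA methyltransferase Dnmt1. The 40 genes were chosen by symbol and form a replication side, built around the Mcm, Pcna and Rrm genes, and a mitosis side, built around the Ccnb, Plk1 and Aurk genes. All 40 were found among the 24318 genes of each deposited table, and all 40 passed the filter on low values, a mean of at least 1 RPKM, at both stages. RPKM corrects reads for the length of the transcript and the size of the library, and levels of genes in a library are set side by side on this scale. How evenly reads covered the transcripts was not examined, so orders between genes are descriptions.

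Polyadenylated RNA was taken from embryonic cells sorted for a green fluorescent reporter at the Oct4 locus, and it was amplified before sequencing. Per the labels, dams homozygous for the reporter (Oct4-IRES-Gfp, OG) and for a conditional Dnmt1 allele (Dnmt12lox) were crossed to sires with Blimp1-Cre (BC), a Cre that acts in PGCs and in other Blimp1-positive cells. The knockout libraries are titled DCKO and labelled Dnmt1 -/-; the others are titled Control and labelled wild type, and the sources used here do not say which alleles each control embryo carried. The E10.5 knockout had 3 libraries (2 female and 1 male) and its control 4 libraries (2 female and 2 male). The E11.5 knockout had 10 libraries (6 female and 4 male) and its control 8 libraries (4 female and 4 male). The labels describe 12 further samples at E13.5, which were not analysed here. Whether a library came from 1 embryo or from a pool is not given either, so the p-values rest on a spread between libraries that may in part be technical.

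Dnmt1 separated the labelled genotypes at both stages. Its highest DCKO value was 59.4 RPKM against a lowest control value of 72.9 RPKM at E11.5, and 29.6 against 74.1 RPKM at E10.5. The log2 difference was -2.07 at each stage, with an exact two-sided permutation p of 4.57e-05 at E11.5 and 0.0571 at E10.5, where it is the smallest that 3 against 4 libraries allow. The depth of the libraries is unknown, and between 8277 and 13200 genes reached 1 RPKM in a library. The mean of 12 germ cell markers ranged from 5.27 to 6.87 on the log2(RPKM + 1) scale in 17 of the 18 E11.5 libraries and was 3.58 in male control 3; at E10.5 it ranged from 6.5 to 7.17. The 7 mesenchyme markers, genes of connective tissue cells that the sort should leave behind, summed to 533 RPKM in male control 3, 337 RPKM in male DCKO 1 and 258 RPKM in female DCKO 4, and to between 0.964 and 104 RPKM in the other E11.5 libraries. In bulk RNA such as this, fewer cells of a type and less RNA per cell cannot be told apart.

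A cell copies its genome in S phase and divides it in M phase. Before S phase the Mcm proteins are loaded on DNA as an inactive helicase by Cdc6 and Cdt1, and geminin (Gmnn) then blocks further loading; cyclin D and cyclin E kinases release E2F factors that switch on these genes. The genes of mitosis are transcribed later, in G2, largely through the MuvB complex with B-Myb and Foxm1. Their promoters often hold a CHR element, which MuvB binds, and CCAAT boxes. PGCs divide rapidly while they migrate and colonise the gonad at these stages, and Dnmt1 itself works at the replication fork, where Pcna recruits it to copy methylation to the new strand.

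The promoters of the printed members show both kinds of element. Whether these elements bear on how the genes varied across libraries was not tested. In RefSeq windows running from 250 bases before to 50 bases after each start site (build GRCm38.p6), 32 of the 40 members had an entry. An E2F site, counted as TTTGGCGC, TTTCCCGC, TTTGCCGC or TTTCGCGC on either strand, was present in 6 of the 7 licensing members with an entry (85.7%) and in 704 of 27025 genes (2.6%). Over all members with an entry it was present in 8 of 32 (25%), in the 9-gene replication set in 4 of 8 (50%), and among the fork and nucleotide supply members in 0 of 4. The CHR element TTTGAA was present on either strand in 8 of 12 members of the wide mitosis set (66.7%) and in 11 of the 32 members (34.4%), against 20.2% of genes, and CCAAT in 71.9% of members against 41.1% of genes. These shares are descriptions, a match is not proof of a bound site, and neighbouring E2F matches can overlap, as they do in Mcm6 and Mcm5.

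The 250 bases before the start site are shown for the 3 members of the 9-gene replication set highest in level among those with an E2F match there, and for the only entry of the 5-gene mitosis set with a CHR match there, 5′ to 3′ on the gene's strand, with E2F, CHR and CCAAT matches on either strand in capitals. Mcm7 lies at chr5:138171884-138172133 (minus strand), Mcm6 at chr1:128359706-128359955 (minus strand), Mcm5 at chr8:75109259-75109508 (plus strand) and Ccnb2 at chr9:70421555-70421804 (minus strand), all from RefSeq, GRCm38.p6.
Mcm7: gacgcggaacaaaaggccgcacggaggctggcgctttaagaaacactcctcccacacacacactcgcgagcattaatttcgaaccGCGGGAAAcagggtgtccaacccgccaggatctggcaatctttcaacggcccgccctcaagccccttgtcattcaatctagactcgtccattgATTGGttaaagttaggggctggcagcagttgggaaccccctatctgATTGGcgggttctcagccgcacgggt
Mcm6: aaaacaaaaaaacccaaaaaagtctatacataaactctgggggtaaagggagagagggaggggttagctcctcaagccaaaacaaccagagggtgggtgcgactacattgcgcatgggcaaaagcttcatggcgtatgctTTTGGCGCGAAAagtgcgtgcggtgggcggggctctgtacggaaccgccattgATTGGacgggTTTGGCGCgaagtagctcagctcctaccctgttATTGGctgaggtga
Mcm5: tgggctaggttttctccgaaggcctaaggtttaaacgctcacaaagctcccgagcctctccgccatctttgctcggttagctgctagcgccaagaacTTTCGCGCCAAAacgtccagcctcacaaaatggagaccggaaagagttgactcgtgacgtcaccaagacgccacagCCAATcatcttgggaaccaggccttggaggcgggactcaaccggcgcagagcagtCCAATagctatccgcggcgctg
Ccnb2: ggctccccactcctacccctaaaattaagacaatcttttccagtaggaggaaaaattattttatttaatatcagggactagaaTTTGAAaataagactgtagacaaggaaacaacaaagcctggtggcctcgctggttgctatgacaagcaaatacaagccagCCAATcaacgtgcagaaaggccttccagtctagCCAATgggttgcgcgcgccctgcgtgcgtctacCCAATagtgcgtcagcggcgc

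The CHR matches of mitosis genes that fell near a start site are given as 30-base stretches with the element in capitals, to show the letters around it. They were chosen after the search, as every match from 50 bases before to 50 bases after the start site in the wide set of 13 mitosis members, so their position was fixed by that choice. The Ccnb2 match from 167 to 162 bases before the start site stands in the promoter above. In Kif11 the match is on the reverse strand and reads TTCAAA. The stretches are Ccnb2 at chr9:70421533-70421562 (minus strand), Cdk1 at chr10:69352910-69352939 (minus strand), Plk1 at chr7:122159453-122159482 (plus strand), Aurka at chr2:172370521-172370550 (minus strand), Bub1b at chr2:118598231-118598260 (plus strand), Cdc20 at chr4:118437344-118437373 (minus strand), Kif11 at chr19:37376351-37376380 (plus strand) and Cenpa at chr5:30666890-30666919 (plus strand), all from RefSeq, GRCm38.p6.
Ccnb2: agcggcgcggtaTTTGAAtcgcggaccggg
Cdk1: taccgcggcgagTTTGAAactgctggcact
Plk1: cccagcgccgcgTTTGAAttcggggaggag
Aurka: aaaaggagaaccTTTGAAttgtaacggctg
Bub1b: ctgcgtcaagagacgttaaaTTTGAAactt
Cdc20: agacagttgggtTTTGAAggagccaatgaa
Kif11: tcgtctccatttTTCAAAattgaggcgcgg
Cenpa: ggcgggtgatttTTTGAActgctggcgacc

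The element began 19, 18 and 15 bases before the start site in Kif11, Cdc20 and Cdk1, and between 5 and 41 bases after it in the other 5 genes. Mki67 and Top2a, listed here as proliferation marks, also held TTTGAA, and among the replication members with an entry only Mcm2 did.

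Most of the 40 genes were abundant in PGCs. At E11.5 the control mean of 36 members lay above that of 50% of the 12667 tested genes and that of 17 members above 90%; at E10.5 the numbers were 34 and 20, over 11584 tested genes. Pcna, the sliding clamp of the replication fork, was the highest member in 16 of 18 libraries at E11.5 and in 6 of 7 at E10.5. Several G1 regulators were low. In E11.5 controls Cdkn1b averaged 1.05 ± 1.44 RPKM, Ccne2 2.57 ± 1.69 RPKM, Cdk6 6.15 ± 8.09 RPKM and Cdk2 7.41 ± 5.55 RPKM (SD, n = 8 each). Of the 40 members 31 had a smaller spread within groups than 50% of the tested genes, at E11.5 and again at E10.5. Most members were also high in level, and their spread was not compared with that of genes at the same level.

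**Figure D1:**
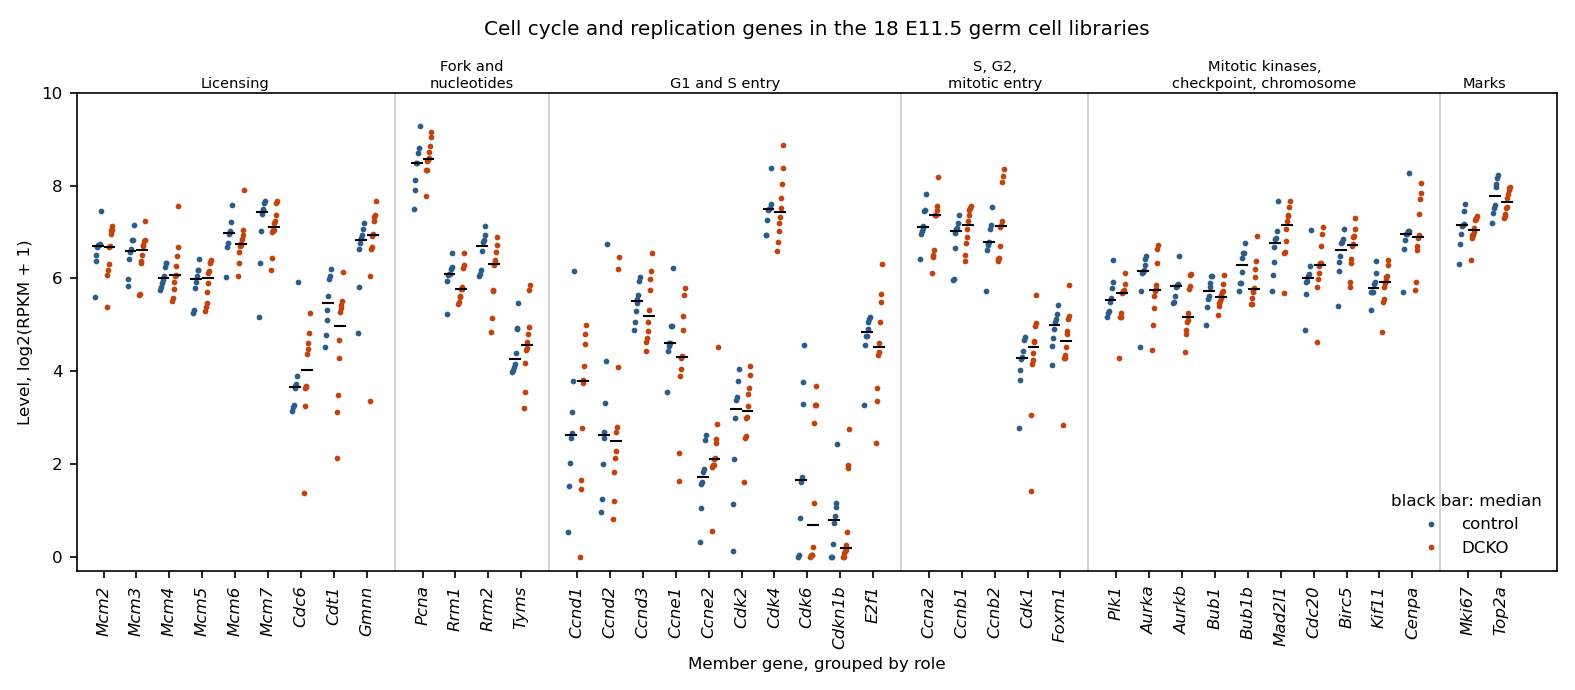
Level of each of the 40 genes, as log2(RPKM + 1), in the 8 control (blue) and 10 DCKO (orange) libraries at E11.5; each point is a library and each black bar a group median. The clouds of the 2 genotypes overlap for every gene, and the widest clouds are those of Ccnd1, Ccnd2 and Cdk6 among the G1 regulators.

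At E11.5 no cell cycle gene differed between DCKO and control PGCs past the threshold. In limma 0 of 40 members had an adjusted p under 0.05, where 0.0237% of all tested genes did. At an unadjusted p under 0.05 there was 1 of 40 (2.5%), against 5.46% of tested genes. The genotypes overlapped for all 40 members, whereas 0.0395% of tested genes did not overlap. Estimates were above 0 for 17 members and below 0 for 23 (57.5%, against 55.0% of tested genes). The median was -0.03 on the log2(RPKM + 1) scale, beside -0.06 for all tested genes. The 95% interval of the difference lay within 1 log2 unit of 0 for 28 members (70.0%), against 27.1% of tested genes. For the other 12 members the interval reached past it. The members were not compared with genes of the same level.

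The helicase subunits, Cdc6 and Gmnn gave estimates near 0 at E11.5. Mcm2, a subunit of the helicase, ranged from 47.4 to 175 RPKM in controls (median 103) and from 40.8 to 139 RPKM in DCKO PGCs (median 102), a log2 difference of -0.03 (SE 0.27, limma adjusted p = 0.995). The other 5 helicase subunits, Mcm3, Mcm4, Mcm5, Mcm6 and Mcm7, had estimates between -0.07 and 0.19, and all 6 intervals lay within 1 log2 unit. Cdc6, a helicase loader, and Gmnn, the inhibitor of the other loader, had estimates of 0.03 (interval -0.94 to 0.99) and 0.04 (interval -0.93 to 1.01). Cdt1 is the loader that geminin holds. It ran from 22.1 to 72.7 RPKM in controls (median 43.8) and from 3.39 to 69.0 RPKM in DCKO PGCs (median 31.0). The 4 lowest Cdt1 libraries were all DCKO, male DCKO 1 at 3.39, male DCKO 4 at 7.73, female DCKO 6 at 10.2 and female DCKO 3 at 18.6 RPKM, while the highest DCKO library reached into the upper part of the control range. The difference was -0.97 (SE 0.48, 95% interval -1.96 to 0.03, limma adjusted p = 0.902). It was -0.21 (SE 0.37) without the 3 libraries poorest in detected genes, which were male control 4 and the 2 lowest Cdt1 libraries, and -0.62 without male DCKO 1 alone.

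Among the genes of the fork and of nucleotide supply, Pcna ranged from 180 to 625 RPKM in controls (median 357) and from 218 to 570 RPKM in DCKO PGCs (median 379), a log2 difference of 0.14 (SE 0.23, limma adjusted p = 0.978). Tyms, which makes thymidylate, differed by 0.19 (SE 0.32). Rrm1 and Rrm2 encode the large and the small subunit of ribonucleotide reductase, the enzyme that makes deoxyribonucleotides. Rrm1 averaged 67.3 ± 15.7 RPKM in controls (SD, n = 8) and 58.8 ± 16.5 RPKM in DCKO PGCs (SD, n = 10), a difference of -0.24 (SE 0.20). Rrm2 was the member with the smallest p at E11.5. It ranged from 64.9 to 139 RPKM in controls (median 103) and from 27.8 to 118 RPKM in DCKO PGCs (median 78.9). The 4 lowest libraries were DCKO, at 27.8, 34.2, 51.7 and 52.5 RPKM, and 3 of those 4 were male; the other 6 DCKO libraries lay inside the control range. The log2 difference was -0.59 (SE 0.25, interval -1.13 to -0.06, limma adjusted p = 0.902). In male libraries alone it was -0.91 (SE 0.48) and in female libraries alone -0.28 (SE 0.27), and the test of the difference between the sexes gave a limma adjusted p of 0.995.

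The G1 and S entry regulators were the most scattered group at E11.5. Their 10 estimates ran from -0.64 to 0.70, and the intervals of only 2, Ccnd3 and Cdk4, lay within 1 log2 unit. Ccne1 and Ccne2 encode cyclin E, which with Cdk2 starts S phase, and their estimates were of opposite sign. Ccne1 had the estimate of -0.64 (SE 0.50) and Ccne2 that of 0.70 (SE 0.44, limma adjusted p = 0.914). Without the 3 libraries poorest in detected genes the estimates were 0.42 (SE 0.34) for Ccne1 and 0.13 (SE 0.41) for Ccne2, both positive. Ccne2 ran from 0.251 to 5.21 RPKM in controls and from 0.473 to 21.9 RPKM in DCKO PGCs, where male DCKO 4 held the highest value and the next was 6.32 RPKM. Ccne1 was above Ccne2 in 16 of 18 libraries. Cdk2 differed by 0.55 (SE 0.51), Cdk4, the kinase partner of cyclin D, by 0.17 (SE 0.28) and the transcription factor E2f1 by -0.27 (SE 0.42).

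Cyclin D is made by 3 genes, which differed in level and in how they varied between libraries. Ccnd3 was higher than Ccnd1 and Ccnd2 in 15 of 18 libraries at E11.5 and in 7 of 7 at E10.5, and Cdk4 was higher than Cdk2 and Cdk6 in every library of both stages. The 3 libraries in which Ccnd2 was above Ccnd3 were male control 3 at 106 RPKM, female DCKO 4 at 87.7 RPKM and male DCKO 1 at 72.4 RPKM of Ccnd2; no other library exceeded 17.7 RPKM. These are the 3 libraries with the highest sums of mesenchyme markers. Ccnd1 was also highest there, at 71.0, 31.0 and 26.8 RPKM, as was Cdkn1b, the inhibitor p27, at 4.41, 2.97 and 5.72 RPKM. Cdk6, an alternative partner of cyclin D, read 22.7, 11.9 and 8.63 RPKM in them, but also 12.6 RPKM in female control 1, where the markers summed to 25.2 RPKM, and 8.83 RPKM in female control 3. Ccnd3 read 43.5, 28.2 and 39.1 RPKM in the same libraries, inside its range elsewhere of 20.5 to 92.8 RPKM.

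**Figure D2:**
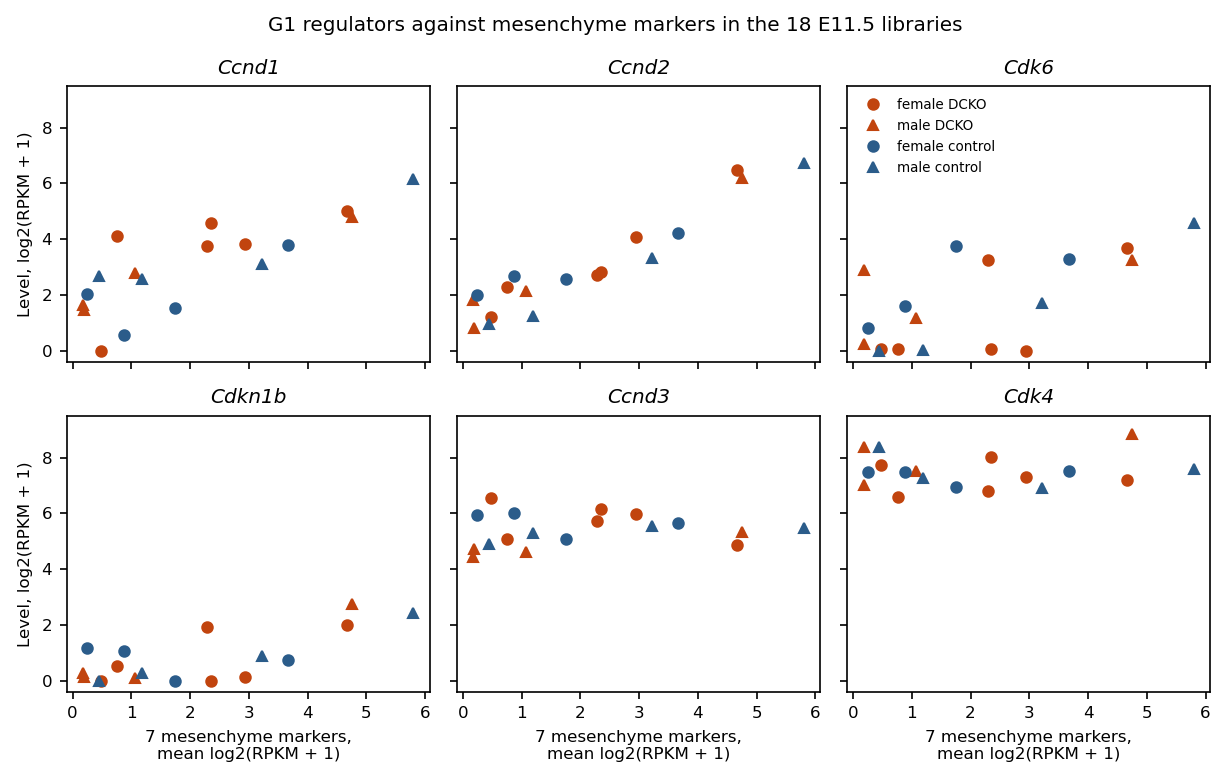
Level of 6 G1 regulators, as log2(RPKM + 1), against the mean of 7 mesenchyme markers on the same scale in each of the 18 E11.5 libraries (circles female, triangles male, orange DCKO, blue control). Ccnd2 and Ccnd1 are highest in the 3 libraries at the right, which are 1 control and 2 DCKO libraries, while the Ccnd3 values of these libraries lie inside the range of the rest.

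All 7 mesenchyme markers reached 1 RPKM in those 3 libraries, and also in male control 1 and female control 3. The part of other cells in the levels of Ccnd1, Ccnd2, Cdk6 and Cdkn1b was not tested. With all libraries the genotype differences of Ccnd1 and Ccnd2 were 0.31 (SE 0.71) and 0.03 (SE 0.87). Without the 3 libraries, an alternative chosen after the data were seen, they were 0.23 (SE 0.66) and -0.25 (SE 0.52). Cdkn1b ranged from 0 to 4.41 RPKM in controls (median 0.744) and from 0 to 5.72 RPKM in DCKO PGCs (median 0.146), with 2 libraries of each genotype listed at 0. Its difference was -0.03 (SE 0.48, limma adjusted p = 0.996), and without the 3 libraries it did not pass the filter. Cdk6 differed by -0.44 (SE 0.76) with them and by -0.43 (SE 0.66) without them.

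The cyclins and kinase of S phase, G2 and mitotic entry did not separate the genotypes at E11.5. Ccnb1, a mitotic cyclin, ranged from 61.7 to 164 RPKM in controls (median 129) and from 82.3 to 189 RPKM in DCKO PGCs (median 141), a difference of 0.27 (SE 0.23, limma adjusted p = 0.946). Ccnb2, its close relative, differed by 0.42 (SE 0.32); the 3 highest libraries, at 328, 295 and 269 RPKM, were DCKO, and the highest control was at 184 RPKM. Ccna2, cyclin A, and Cdk1, the mitotic kinase, differed by -0.11 (SE 0.26) and -0.04 (SE 0.41). Foxm1, a transcription factor of the mitotic genes, differed by -0.20 (SE 0.29). Ccnb1 was above Cdk1 in every library of both stages.

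All 10 mitotic kinase, checkpoint and chromosome genes had intervals within 1 log2 unit at E11.5. Plk1, the Polo kinase of mitotic entry, ranged from 34.9 to 83.4 RPKM in controls (median 45.5) and from 18.6 to 68.3 RPKM in DCKO PGCs (median 50.8), a difference of -0.10 (SE 0.25, limma adjusted p = 0.992). Aurka, the spindle pole kinase, ranged from 22.1 to 88.4 RPKM (median 70.6) and from 21.1 to 105 RPKM (median 52.9), a difference of -0.33 (SE 0.28, adjusted p = 0.946). Aurkb, the kinase of the chromosomal passenger complex, ranged from 43.0 to 88.3 RPKM (median 56.0) and from 20.2 to 67.4 RPKM (median 35.1). Of the 10 DCKO libraries 6 lay below every control for Aurkb, and 5 of these 6 were female. Its difference was -0.41 (SE 0.23, interval -0.89 to 0.08, limma adjusted p = 0.912). Bub1b, the spindle checkpoint protein BubR1, ranged from 51.9 to 108 RPKM (median 77.5) and from 42.5 to 119 RPKM (median 53.6), a difference of -0.37 (SE 0.22, limma adjusted p = 0.912). The checkpoint kinase Bub1 and the checkpoint protein Mad2l1 differed by -0.06 (SE 0.20) and 0.30 (SE 0.29). Cdc20, which activates the anaphase ligase, differed by 0.25 (SE 0.32), and Birc5, survivin of the passenger complex, by 0.07 (SE 0.23). Kif11, the motor that separates spindle poles, and Cenpa, the histone H3 variant of centromeres, differed by -0.04 (SE 0.22) and 0.08 (SE 0.35).

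The proliferation marks were also close between genotypes. Mki67, a protein of dividing cells, ranged from 78.0 to 194 RPKM in controls (median 141) and from 82.7 to 161 RPKM in DCKO PGCs (median 131), a difference of -0.03 (SE 0.20, interval -0.45 to 0.38, limma adjusted p = 0.993). Top2a, the topoisomerase that untangles sister chromatids, differed by -0.14 (SE 0.17, interval -0.49 to 0.22, limma adjusted p = 0.971). A p that misses the threshold does not show that genotypes were equal, and the intervals give the sizes of difference that remain possible.

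**Figure D3:**
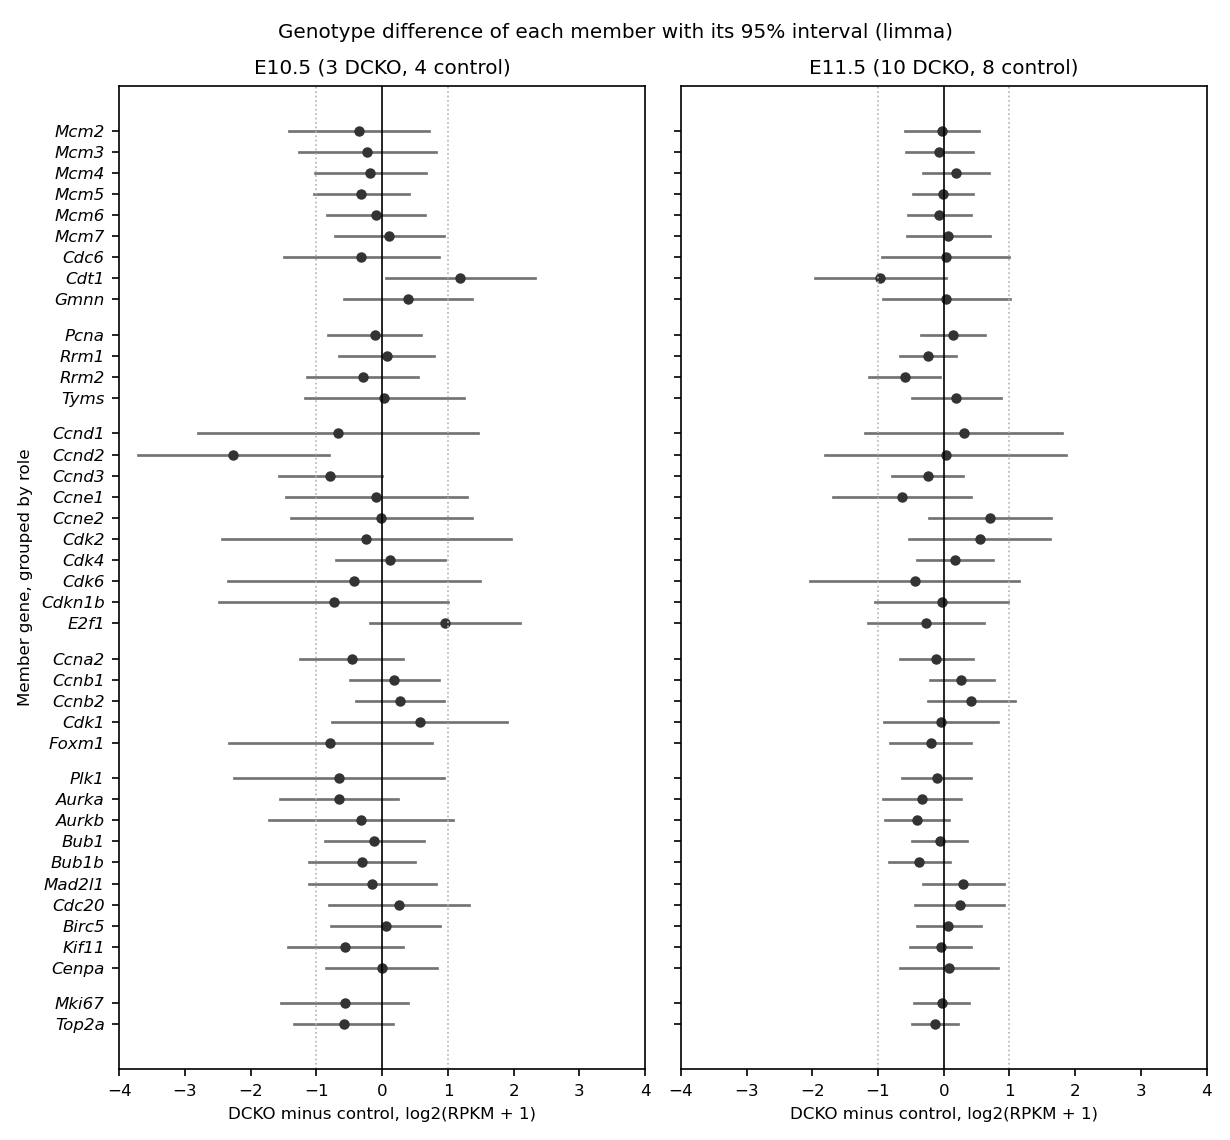
DCKO minus control difference on the log2(RPKM + 1) scale for each of the 40 genes (points) with its 95% limma interval (lines), at E10.5 (left) and E11.5 (right); dotted lines mark 1 log2 unit. The intervals are narrower at E11.5, where 28 lie within the dotted lines, than at E10.5, where 10 do.

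At E10.5, with 3 DCKO and 4 control libraries, 0 of 40 members passed the adjusted threshold in limma, as did 0% of the 11584 tested genes. At an unadjusted p under 0.05 there were 3 members (7.5%), against 3.09% of tested genes. The 3 were Ccnd2, Cdt1 and Ccnd3. In 3 members (7.5%) no DCKO library overlapped a control library, against 5.15% of tested genes; these were Ccnd2, Aurka and Top2a, each lower in DCKO. Estimates were above 0 for 12 members and below 0 for 28 (70.0%, against 53.2% of tested genes). The median was -0.21, beside -0.05 for all tested genes.

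The lean was smallest without female DCKO 1, a library that stood apart at this stage. It held the lowest value of Plk1 at 4.92 RPKM, of Mcm2 at 29.2 RPKM, of Foxm1 at 2.42 RPKM and of Aurkb at 10.8 RPKM, but the highest value of Cdk1 at 99.5 RPKM. Its 12 germ cell markers averaged 6.84 on the log2(RPKM + 1) scale, inside the range of the other libraries, and 9412 genes reached 1 RPKM. Without it 19 members were above 0, 20 were below 0 and Ccne2 was at 0.00, with a median of -0.01. With any other single library left out, 11 to 15 members were above 0 and 25 to 29 below. The Plk1 difference was -0.65 (SE 0.70) with it and 0.22 without it, and that of Mcm2 was -0.36 (SE 0.47) with it and 0.13 without it.

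Ccnd2 gave the smallest p of any member at E10.5. The controls read 9.98 and 10.8 RPKM in males and 7.41 and 5.24 RPKM in females, and the DCKO libraries read 0.324 RPKM in the male and 0.811 and 1.72 RPKM in the females. All 3 DCKO libraries were thus lower than all 4 controls, with a gap from 1.72 to 5.24 RPKM. The log2 difference was -2.27 (SE 0.64, interval -3.72 to -0.81, limma adjusted p = 0.991), and -2.26 without female DCKO 1. The mesenchyme markers, which moved with Ccnd2 at E11.5, summed to 1.87 and 27.8 RPKM in male controls 1 and 2 at E10.5. In female controls 1 and 2 they summed to 3.17 and 1.67 RPKM. The sums were 0.515 RPKM in the male DCKO library and 0.56 and 2.1 RPKM in female DCKO 1 and 2. Male control 1 and female control 2 thus had lower sums than female DCKO 2, but every control read at least 5.24 RPKM of Ccnd2. None of the 7 markers reached 1 RPKM in any DCKO library, and 0 to 6 did in controls. The part of the mesenchyme markers in the Ccnd2 result was not tested. At E11.5 the Ccnd2 values of the genotypes overlapped throughout.

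Ccnd3 read 110, 118, 55.3 and 65.1 RPKM in the E10.5 controls, males first, and 69.8, 25.3 and 42.5 RPKM in the DCKO libraries, the male first. Within each sex every DCKO library was below every control. Over both sexes the genotypes overlapped, and the share of tested genes with this order within each sex was not computed. The difference was -0.79 (SE 0.34, interval -1.57 to -0.01, limma adjusted p = 0.991) and -0.59 without female DCKO 1. Ccnd1 was low in most libraries, with 2.40 to 23.1 RPKM in controls and 0.0813 to 7.70 RPKM in DCKO PGCs, a difference of -0.68 (SE 0.94). The highest Ccnd1 value belonged to male control 2, the E10.5 library with the highest sum of mesenchyme markers, which also held the highest Cdk6 value at 6.29 RPKM and the highest Cdk2 value at 14.1 RPKM.

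Cdt1 had a positive estimate at E10.5 and a negative one at E11.5. The E10.5 controls read 17.2, 35.4, 55.2 and 43.4 RPKM and the DCKO libraries 87.0, 149 and 49.6 RPKM, so that the DCKO values were higher apart from female DCKO 2, which fell inside the control range. The difference was 1.19 (SE 0.50, interval 0.05 to 2.33, limma adjusted p = 0.991) and 0.90 without female DCKO 1. The 2 stages were in separate tables, and the change of the difference between them was not tested. E2f1 read 16.8, 18.7, 19.4 and 33.6 RPKM in controls and 78.5, 33.3 and 26.5 RPKM in DCKO PGCs, a difference of 0.96 (SE 0.50, limma adjusted p = 0.991); male DCKO 1 alone stood above all controls.

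Top2a read 265, 237, 259 and 263 RPKM in the E10.5 controls and 212, 111 and 198 RPKM in the DCKO libraries. The controls were tightly grouped and all DCKO libraries were lower. The difference was -0.58 (SE 0.33, interval -1.34 to 0.17, limma adjusted p = 0.991), and -0.32 without female DCKO 1. Aurka read 129, 64.7, 83.1 and 58.3 RPKM in controls and 55.6, 35.0 and 57.4 RPKM in DCKO PGCs, where the gap between groups was from 57.4 to 58.3 RPKM. Its difference was -0.66 (SE 0.39, limma adjusted p = 0.991). Mki67 read 190, 91.8, 120 and 110 RPKM in controls and 89.9, 48.4 and 119 RPKM in DCKO PGCs, a difference of -0.57 (SE 0.42, adjusted p = 0.991 in limma), with groups that overlapped.

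**Figure D4:**
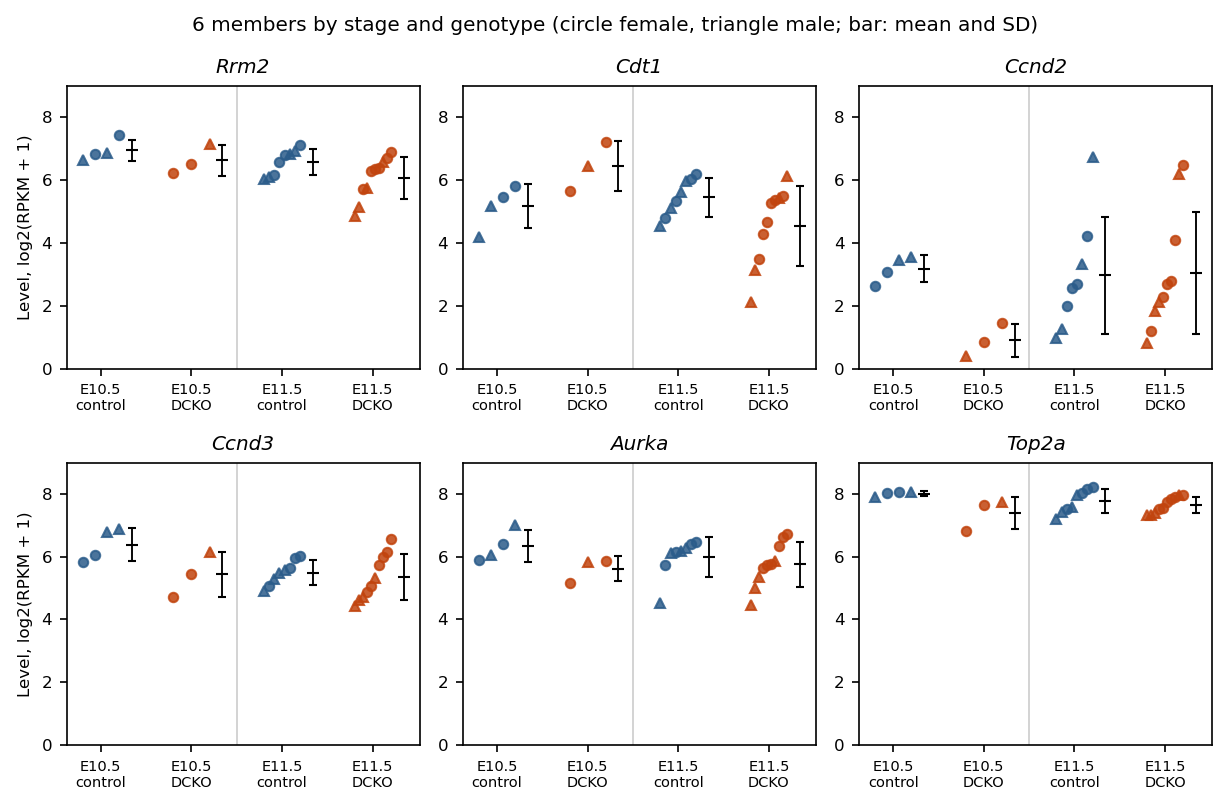
Levels of 6 genes as log2(RPKM + 1) in each library by stage and genotype (circles female, triangles male, blue control, orange DCKO), with the mean and SD of each group beside the points. At E10.5 the DCKO points of Ccnd2, Aurka and Top2a all lie below the control points, and at E11.5 the groups overlap in all 6 panels.

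The remaining E10.5 members gave smaller differences or wide intervals. Pcna read 324 to 451 RPKM in controls and 244 to 402 RPKM in DCKO PGCs, a difference of -0.11 (SE 0.31, interval -0.82 to 0.59). Rrm2 read 98.9 to 172 RPKM and 73.7 to 142 RPKM, a difference of -0.30 (SE 0.37, interval -1.15 to 0.55). Ccnb1 read 114 to 160 RPKM and 143 to 192 RPKM, a difference of 0.18 (SE 0.30, interval -0.49 to 0.86). Cdkn1b read 0.131 to 6.56 RPKM and 0.0752 to 0.738 RPKM, a difference of -0.74 (SE 0.77, interval -2.49 to 1.00). The 6 helicase subunits lay between -0.36 and 0.11, and the 10 mitotic kinase, checkpoint and chromosome genes between -0.66 and 0.26. Only 10 of 40 intervals (25%) lay within 1 log2 unit at this stage, against 4.53% of tested genes. Here too the members were not compared with genes of the same level.

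The balance of replication to mitosis transcripts was taken within each library, as the mean log2(RPKM + 1) of 9 replication genes (the 6 Mcm genes, Pcna, Rrm1 and Rrm2) minus that of 5 mitosis genes (Ccnb1, Ccnb2, Plk1, Aurka and Aurkb). It was positive in all 25 libraries. At E10.5 it was 0.51 in the male DCKO library and 0.98 and 0.58 in the female ones, and 0.34 and 0.46 in male and 0.62 and 0.82 in female controls. At E11.5 it ran from 0.25 to 0.87 in DCKO PGCs (median 0.40) and from 0.20 to 0.69 in controls (median 0.46). The mean balance was 0.69 ± 0.25 (SD, n = 3) in DCKO and 0.56 ± 0.21 (SD, n = 4) in control PGCs at E10.5, and 0.44 ± 0.18 (SD, n = 10) and 0.47 ± 0.16 (SD, n = 8) at E11.5. The genotype difference of 0.13 at E10.5 and of -0.03 at E11.5 was thus smaller than 1 SD of the libraries within a group. These means and SDs pool the sexes, whose shares differ between the genotypes, and the differences were not adjusted for sex. With 13 genes on each side, where Cdc6, Cdt1, Gmnn and Tyms enter the replication mean, it ran from -0.41 to 0.31 at E11.5 and was no longer positive in every library.

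Both sets moved together from library to library. Over the 18 E11.5 libraries the replication and mitosis means correlated with a Pearson r of 0.85 and a Spearman rho of 0.83, and r was 0.70 without the 2 libraries farthest from the median replication mean. The values share library and depth and are given as a description. The lowest mitosis means at E11.5 were 5.4 in male control 3, 5.66 in female DCKO 4 and 5.89 in male DCKO 1, the libraries with the lowest germ cell marker means (3.58, 5.27 and 5.34) and the highest mesenchyme sums. Their replication means were 6.09, 6.18 and 6.41, and only male DCKO 2, at 6.36, fell among them. The part of other cells in these means was not tested.

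**Figure D5:**
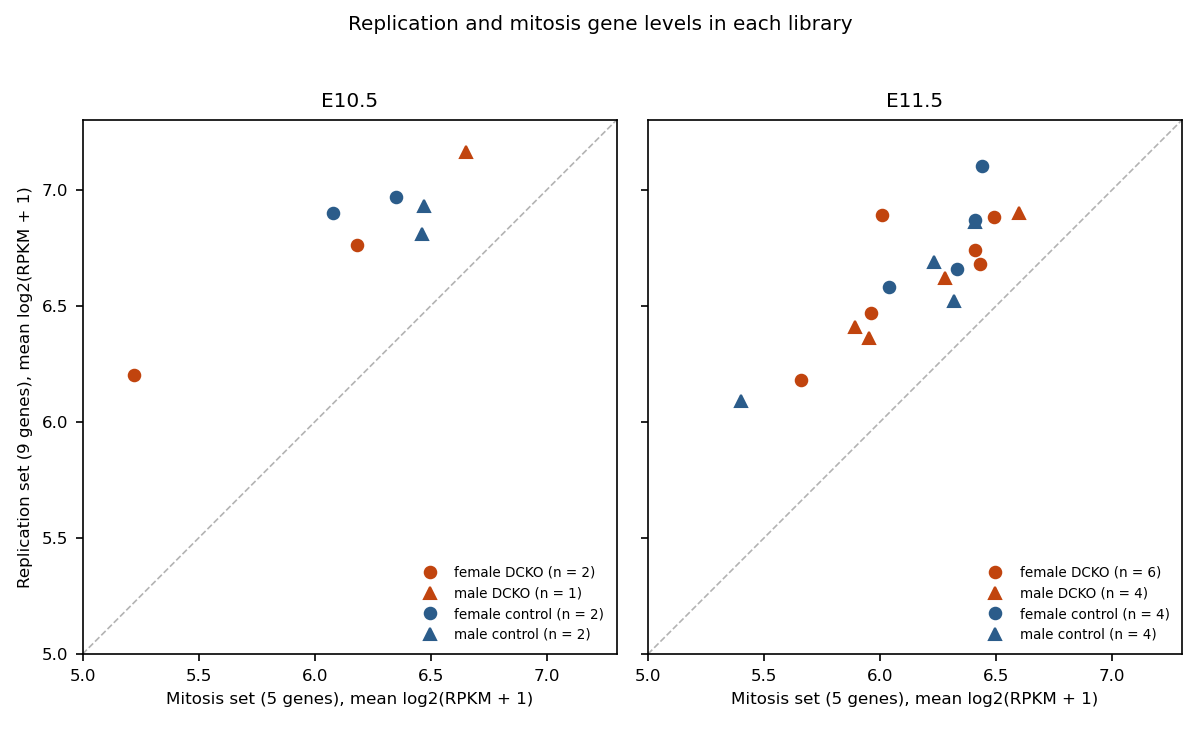
Mean log2(RPKM + 1) of the 9 replication genes against that of the 5 mitosis genes in each library at E10.5 (left) and E11.5 (right), with the line of equality dashed (circles female, triangles male, orange DCKO, blue control). Every library lies above the line, both genotypes lie along the same band, and female DCKO 1 at E10.5 and male control 3 at E11.5 are the lowest points of their panels.

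Between stages the control levels were alike for most members. The stages were deposited as separate tables, so the values are set side by side with no test. The control means of 32 of 40 members were within 1.5-fold of each other. The share of all tested genes within this limit was not computed, so the count is not read as a trait of the members. Pcna averaged 375 ± 54.0 RPKM at E10.5 (SD, n = 4) and 362 ± 138 RPKM at E11.5 (SD, n = 8), Mki67 128 ± 43.2 and 138 ± 36.6 RPKM, and Plk1 51.0 ± 17.3 and 49.8 ± 16.1 RPKM. The 8 members outside that range were Ccnd1, Ccnd2, Ccnd3, Ccne2, Cdk2, Cdk6 and Cdkn1b among the G1 regulators, and Cdc6. Without male control 3, the library with the highest mesenchyme sum, in an alternative chosen after the data were seen, the control means of 35 members were within 1.5-fold. The Ccnd2 mean at E11.5 was then 6.05 ± 5.82 RPKM in place of 18.6 ± 35.9 RPKM, beside 8.36 RPKM at E10.5, and that of Ccnd1 was 5.16 ± 4.13 RPKM in place of 13.4 ± 23.6 RPKM, beside 8.85 RPKM, so that both went from above to below the E10.5 level (SD, n = 7 without it and 8 with it). Ccne2 and Cdk2 also came within 1.5-fold, and Ccnd1, Ccnd3, Cdc6, Cdk6 and Cdkn1b did not. Ccnd3 averaged 87.0 ± 31.3 RPKM at E10.5 and 45.5 ± 12.6 RPKM at E11.5. The E11.5 controls reached at most 64.4 RPKM, and 1 of the 4 E10.5 controls, at 55.3 RPKM, fell inside their range. Cdc6 averaged 28.7 ± 15.4 RPKM and 16.7 ± 17.4 RPKM, with ranges of 17.8 to 51.4 and 7.85 to 59.4 RPKM that overlapped.

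Female and male PGCs were compared at E11.5 over both genotypes. No member passed the adjusted threshold in limma (0 of 40, against 0.0395% of tested genes), and 3 members (7.5%) had an unadjusted p under 0.05, against 5.7% of tested genes. All 3 were higher in females. Ccnd3 ran from 28.2 to 92.8 RPKM in 10 female libraries (median 56.8) and from 20.5 to 46.3 RPKM in 8 male libraries (median 33.5), a difference of 0.66 (SE 0.26, limma adjusted p = 0.823). At E10.5 both control males, at 110 and 118 RPKM, were above both control females. Aurka ran from 48.5 to 105 RPKM in females (median 74.6) and from 21.1 to 76.7 RPKM in males (median 48.6), a difference of 0.69 (SE 0.28, limma adjusted p = 0.852). Birc5 ran from 80.5 to 157 RPKM (median 107) and from 41.4 to 120 RPKM (median 75.1), a difference of 0.49 (SE 0.23, limma adjusted p = 0.864). The sexes overlapped for all 3 genes. The lowest male Aurka values, 21.1 and 22.1 RPKM, were in male DCKO 1 and male control 3. The lowest female value, 48.5 RPKM, was in female DCKO 4. These libraries had the highest sums of mesenchyme markers. The 3 libraries poorest in detected genes were all male. No alternative fit of the sex difference without such libraries is given here, and their part in it was not tested.

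Top2a and Cdk1 came next, with female minus male differences of 0.34 (SE 0.17, limma adjusted p = 0.866) and 0.82 (SE 0.41, adjusted p = 0.873). Rrm2 differed by 0.50 (SE 0.25), Ccnb1 by 0.35 (SE 0.23), Pcna by 0.15 (SE 0.23), Mki67 by 0.06 (SE 0.20), Cdkn1b by -0.10 (SE 0.48), Mcm2 by -0.16 (SE 0.27) and Plk1 by -0.29 (SE 0.25). Estimates were above 0 for 26 members (65.0%), against 56.2% of tested genes, and the median was 0.15 beside 0.07. The replication set had a median of 0.32 and the mitosis set one of 0.15. With 13 genes on each side the medians were 0.32 and 0.18. The order was the reverse in longer lists, with 0.09 for 42 other replication genes and 0.2 for 47 other mitosis genes. An unadjusted limma p under 0.05 was found for 2.38% of the former and 14.9% of the latter, against 5.7% of tested genes. No gene of either list passed the adjusted threshold. Which side leaned more to females thus depended on the list.

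The genotype difference was compared between the sexes with an interaction term. In limma 0 of 40 members passed the adjusted threshold, as did 0% of tested genes, and 0 of 40 had an unadjusted p under 0.05, against 3.58% of tested genes. The smallest p belonged to Foxm1. It averaged 31.9 ± 8.37 RPKM in female controls (SD, n = 4) and 19.9 ± 9.31 RPKM in female DCKO PGCs (SD, n = 6), but 27.8 ± 8.79 RPKM in male controls and 36.4 ± 13.8 RPKM in male DCKO PGCs (SD, n = 4 each). The interaction was -1.13 (SE 0.59, interval -2.36 to 0.10, limma adjusted p = 0.995). For Ccnd1 it was 2.53 (SE 1.43, limma adjusted p = 0.995). The 71.0 RPKM of male control 3 raised this estimate, and the value of 0 in female DCKO 3 lowered it. Mcm4, Cdc6 and Mcm7 followed with interactions of -0.72 (SE 0.48), 1.35 (SE 0.92) and -0.85 (SE 0.60).

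Further genes of the same pathways, from lists outside the 40, were read in the same fits. Of 42 other replication genes 0 passed the adjusted threshold at E11.5, with 2 higher and 0 lower at an unadjusted p under 0.05 (4.76%, against 5.46% of all tested genes) and a median of -0.01. Gins4, of the GINS part of the helicase, averaged 79.6 ± 35.1 RPKM in controls (SD, n = 8) and 122 ± 52.7 RPKM in DCKO PGCs (SD, n = 10), a difference of 0.67 (SE 0.28, limma adjusted p = 0.902), but its E10.5 estimate was -0.98 (SE 0.45, adjusted p = 0.991). Prim1, of the primase, averaged 75.9 ± 23.4 and 113 ± 45.9 RPKM, a difference of 0.58 (SE 0.26, limma adjusted p = 0.902). Dbf4, the activator of the Cdc7 kinase, gave the next smallest p after Gins4 at E10.5, with a difference of -0.67 (SE 0.35). Of 47 other mitosis genes tested 0 passed, with 0 higher and 2 lower at the unadjusted p (4.26%, against the same 5.46%) and a median of -0.09. Those 2 were the kinesin Kif22 at -0.89 (SE 0.36) and the centromere motor Cenpe at -0.44 (SE 0.20), both with a limma adjusted p of 0.902. At E10.5 Kif22 differed by -0.85 (SE 0.45) and the checkpoint kinase Ttk by -0.71 (SE 0.38).

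Of 11 tested inhibitors and brakes of the cycle none passed the adjusted threshold in limma at either stage. Gadd45a, a stress-responsive brake, averaged 22.9 ± 2.87 RPKM in controls (SD, n = 4) and 9.26 ± 9.47 RPKM in DCKO PGCs (SD, n = 3) at E10.5, a difference of -1.53 (SE 0.63, limma adjusted p = 0.991). At E11.5 it was 18.8 ± 11.7 RPKM (SD, n = 8) and 9.63 ± 6.02 RPKM (SD, n = 10), a difference of -0.86 (SE 0.45, limma adjusted p = 0.902). Cdkn1a, the inhibitor p21, had estimates of 1.97 (SE 0.95) at E10.5 and 0.63 (SE 0.44) at E11.5, with values of 0.0659 to 22.2 RPKM in controls and 17.9 to 27.8 RPKM in DCKO PGCs at E10.5 and overlapping groups at both stages. Of 16 E2F and MuvB regulators 0 passed at either stage; at E11.5 Lin54, the CHR-binding subunit of MuvB, was the only 1 with an unadjusted p under 0.05 (6.25%, against 5.46% of all tested genes), at -0.88 (SE 0.39), followed by the E2F partner Tfdp2 at -0.48 (SE 0.34). At E10.5 E2f6 and Lin9 came first, at -1.17 (SE 0.76) and -1.02 (SE 0.80). Of 6 checkpoint kinases and their targets 0 passed, with Chek1 at 0.47 (SE 0.22, limma adjusted p = 0.902) and Wee1 at 0.39 (SE 0.25) at E11.5, and Chek2 at 1.63 (SE 0.85) and Atm at 0.28 (SE 0.47) at E10.5.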

How the data were processed

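The deposited tables give RPKM per gene and library, as the authors computed it; the submitters' processing notes name TopHat2 2.1.0, Cufflinks 2.2.1, Cuffdiff and the mm9 build, and which of them made the tables is not recorded. The amplified RNA and the unknown depth limit precision, and no interval or floor for a single value could be given. The members and lists were chosen with earlier results of these data known.

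Each stage was fitted alone on log2(RPKM + 1), which understates the change of low genes, over the genes that averaged 1 RPKM or more, with limma 3.58.1 (moderated statistics with a trend, R 4.3.3) and Benjamini-Hochberg adjustment over all tested genes at 0.05. The E11.5 fit had 4 group means (genotype by sex) and the E10.5 fit genotype plus sex. The script was tested on simulated data. Dnmt1 was compared with an exact permutation test of its values (scipy 1.17.1). Given with values were, in each comparison, the 5 members with the smallest p, those past the threshold, those whose genotypes did not overlap, and always Mki67, Pcna, Mcm2, Rrm2, Ccnb1, Plk1, Aurka and Cdkn1b; of each other list, those past the threshold and the 2 with the smallest p in each genotype comparison. Alternatives changed the pseudocount, filter, scaling, weights, block, sex term and libraries. Promoter windows came from RefSeq, GRCm38.p6, matched by symbol; no coordinate of the mm9 data was used. The promoters of Mcm4, Gmnn, Ccnd1, Ccnd2, Ccne2, Ccna2, Foxm1 and Aurkb were not analysed here.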

Additional observations from a re-analysis of the deposited data

Results flagged for a closer look

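In 160 groups of 4 to 6 libraries (a gene in a sex and genotype at E11.5), 10 values lay farther from the rest of their group than Dixon's 95% limit allows; chance alone marks about 1 in 20 groups. Among the 6 female DCKO libraries, Ccnd1 was listed at 0 in replicate 3 and lay between 12.4 and 31.0 RPKM in the others, and Ccna2 was 97.4 RPKM in replicate 4 and between 163 and 188 RPKM in the others. Among the 4 female controls, Cdk4 was 122 RPKM in replicate 1 (others 178 to 181) and Aurkb was 43 RPKM in replicate 3 (others 56.4 to 58.1). Among the 4 male DCKO libraries, Cdkn1b was 5.72 RPKM in replicate 1 (others 0.0589 to 0.193) and Top2a was 247 RPKM in replicate 4 (others 158 to 167). Male control 4 was low for Rrm1, at 36.5 RPKM (others 67.2 to 75.0), and for Cdk2, at 0.0962 RPKM (others 9.89 to 15.6). Male control 3 was high for Ccnd1, at 71 RPKM (others 4.91 to 7.67), and low for Aurka, at 22.1 RPKM (others 68.4 to 76.7).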

How the results depend on the processing

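No member passed the adjusted threshold in limma under any of the 33 alternatives at E11.5 or the 17 at E10.5, while the count over all genes ran from 1 to 5 at E11.5 (main 3) and reached 11 at E10.5 without male DCKO 1 (main 0). With library weights 1200 genes at E11.5 (main 692) and 1141 at E10.5 (main 358) had an unadjusted p under 0.05. Rrm2 at E11.5 ran from -0.91 to -0.28, with an unadjusted p under 0.05 in 22 of 33 alternatives and a lowest adjusted p of 0.46; Ccnd2 at E10.5 ran from -3.23 to -1.71, in 16 of 17, with a lowest adjusted p of 0.331. Single members' estimates changed sign in 70 alternative values at E10.5 and in 143 at E11.5 where an estimate was within 1 SE of 0, and in 1 where both were beyond it: Ccne1 at E11.5, -0.64 over all libraries, was 0.42 once the 3 poorest in detected genes were left out; the cause was not tested. The E11.5 set medians kept within -0.18 to 0.11 (replication) and -0.33 to 0.01 (mitosis). At E10.5 the replication median, -0.18, was -0.26 with the title number as a term and -0.26 without the library poorest in detected genes, and the mitosis median, -0.32, was -0.01 with library weights; the cause was not tested. Leaving out 1 library moved them from -0.27 (without male DCKO 1) to 0.06 (without female DCKO 1) and from -0.62 to 0.19 (the same libraries); without female control 1 they were 0.04 and -0.02, without female DCKO 2 -0.26 and -0.53. The replication minus mitosis difference ran from -0.11 to 0.00 at E11.5 and from -0.02 to 0.22 at E10.5.

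With the replicate block 0 members passed at either stage, Rrm2 at E11.5 was -0.57 (limma adjusted p = 0.991) and Ccnd2 at E10.5 was -2.22 (limma adjusted p = 1). Deviations of libraries with the same replicate number and sex correlated between -0.17 and 0.15 over 8 pairs at E11.5 and at 0.01 in 2 pairs at E10.5; for the title number the range was -0.02 to 0.49 over 13 pairs at E11.5. The replicate number was therefore not taken to pair libraries. Of the 13 title number pairs 6 were over 0.1, so libraries with the same title number may share part of their deviations. The main fits did not use this number. With it as a term, Rrm2 at E11.5 was -0.45 (SE 0.26, limma adjusted p = 0.795) and Bub1b -0.48 (SE 0.21, limma adjusted p = 0.78). Ccnd2 at E10.5 was -2.19 (SE 0.67) in that fit.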
